A study of Mus musculus with 6 samples.

Results

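The epithelial keratins examined were 10 genes, chosen by name as the simple keratins Krt7, Krt8, Krt18, Krt19, Krt20, Krt23 and Krt80 and the stratified keratins Krt5, Krt14 and Krt17, out of 24214 RefSeq features counted in each sample. Their messenger RNA was compared between 393P_ZEB1 and 393P_vector cells, that is, between 393P cells transfected with a ZEB1 expression vector and 393P cells transfected with the empty vector. The parental line, 393P, was derived from mouse lung adenocarcinoma (LUAD) and is of epithelial type, and added ZEB1 is used in it as a model of epithelial-to-mesenchymal transition (EMT). The labels describe KP lung cancer cells of C57BL/6 strain and lung origin, and all samples were grown as transfectants in RPMI-1640 with FCS. Total RNA of 3 samples per condition was sequenced on the SOLiD platform. Both conditions derive from a single cell line, and no source used here says if replicates came from independent transfections or cultures, so the p-values measure only the spread between these samples, which may be technical. An effect of ZEB1 cannot be told apart from any other difference between the transfected lines.

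Keratins are the intermediate filament proteins of epithelial cells. A filament is built from obligate heterodimers of an acidic type I chain and a basic or neutral type II chain, and an unpaired chain is usually unstable. The type II members here are Krt7, Krt8, Krt80 and Krt5, and the type I members are Krt18, Krt19, Krt20, Krt23, Krt14 and Krt17. Krt8 and Krt18 are the founding pair of simple epithelia such as the alveolar lining, with Krt7 and Krt19 joining them in ducts and airways, while Krt5 with Krt14 is the pair of basal cells in stratified epithelia. During EMT keratin filaments are commonly replaced by those of vimentin. ZEB1 is a zinc finger repressor that binds E-box sequences of the form CACCTG in promoters of epithelial genes.

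Total counts ranged from 57844355 to 79158012 in 393P_vector and from 54442450 to 61251074 in 393P_ZEB1 samples. Levels are given as CPM, the counts scaled to a common library size with TMM factors. A level of 3 counts, taken as the floor of detection, was 0.0361 to 0.0561 CPM in a sample. Zeb1 rose from 21.5 ± 0.435 to 51.7 ± 3.01 CPM (SD, n = 3 per group, log2 fold change 1.26, adjusted p = 6.06e-05 from edgeR), reads from any transgene that align to it included. Of 5 epithelial markers (Epcam, Cdh1, Cldn4, Cldn7, Esrp1) all 5 fell, and their sum went from 581 to 764 CPM down to 10.7 to 13.1 CPM. The 4 mesenchymal state markers (Vim, Cdh2, Fn1, Zeb2) all rose, from sums of 7593 to 8372 CPM up to 10571 to 11858 CPM. Of the alveolar type 2 list, which summed to 119 to 177 and then 82.8 to 94.6 CPM, the defining Sftpc and Sftpb reached no more than 5 counts in any sample, and Abca3 made up most of the sum. The alveolar type 1 list, mostly Rtkn2, summed to 28.7 to 31.8 and then 26.1 to 28.4 CPM. Fibroblast markers summed to 2.13 to 2.91 CPM in 393P_vector and 0.936 to 1.10 CPM in 393P_ZEB1 samples, with Dcn and Lum at no more than 4 counts. Endothelial markers summed to 2.26 to 2.46 CPM in 393P_vector and 0.630 to 0.868 CPM in 393P_ZEB1 samples. Leukocyte markers summed to 1.95 to 4.07 CPM in 393P_vector and 1.49 to 1.87 CPM in 393P_ZEB1 samples. The club cell list, with Scgb1a1 at 0 counts, was at most 0.108 CPM. The 393P_vector replicate 3 stood apart from its group. At least a 2-fold difference from replicates 1 and 2 was seen in 5.0% and 5.51% of tested genes, against 0.0648% between replicates 1 and 2 and 0.0936% to 0.18% between 393P_ZEB1 replicates.

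To show the sequence context of these genes, promoter windows from RefSeq (GRCm38.p6, 250 bases before to 50 after the start) were searched on both strands for CACCTG, read as CAGGTG on the opposite strand, and for the shorter CACCT that lies within it. Windows were listed for 7 of the 10 genes. Krt19, Krt80 and Krt17 had no entry, and the Krt14 window was set aside because it lay 1480 bases from the start of the counted feature. CACCTG occurred in 5 of the 6 windows used, among them those of Krt7, Krt18, Krt23 and Krt5, compared with 20.2% of the 32851 windows in the table. CACCT occurred in all 6, compared with 51.9% of all windows. The matches of these 4 genes are shown with 10 bases on each side, 5′ to 3′ on the strand of the gene and with the match in capitals, because they place the same letters upstream of keratins whose RNA differed widely in its response, and of Krt23, which was barely detected. The Krt7 match is at chr15:101412349-101412374 (+ strand), the Krt18 match at chr15:102027992-102028017 (+ strand), the Krt23 match at chr11:99493337-99493362 (- strand) and the Krt5 match at chr15:101713018-101713043 (- strand). The Krt20 window held CACCT but not CACCTG. A match describes letters and was not tested for binding.
Krt7: gccctgtcccCACCTGtgtgcgctca
Krt18: gggctaacacCACCTGctatcctttg
Krt23: atctgctaccCACCTGgtggcctggg
Krt5: caccactgtgCAGGTGtgctgggtga

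Keratin RNA fell in 393P_ZEB1 cells, but very unevenly from gene to gene. Krt7 was nearly lost. Krt14 and Krt17 fell 20.8-fold and 10.2-fold, and Krt80, Krt20 and Krt5 fell 5.81-fold, 5.36-fold and 3.24-fold. Krt18 and Krt8 kept most of their level, and the change of Krt19 did not pass the test. By edgeR's quasi-likelihood test with Benjamini-Hochberg adjustment over all 13892 tested genes, 9 of the 10 keratins could be tested, 8 were lower at an adjusted p below 0.05 and 0 were higher. Over all tested genes, 19.3% were lower and 18.3% were higher. In 8 of the 9 tested keratins every 393P_ZEB1 sample lay below every 393P_vector sample, which held for 26.5% of all tested genes. The median log2 fold change of the 9 was -2.42, against -0.02 over all tested genes. The lower keratins comprised 5 of the 6 simple members tested and all 3 stratified members. The stratified members reached 10 counts only in 393P_vector samples and passed the low-count filter through that group alone. A rise could therefore hardly be called for them, and they add no weight to the counts and median above. With at least 10 counts required in every sample, 5 of the 6 members left were lower, beside 2215 of all 12572 genes tested.

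**Figure D1:**
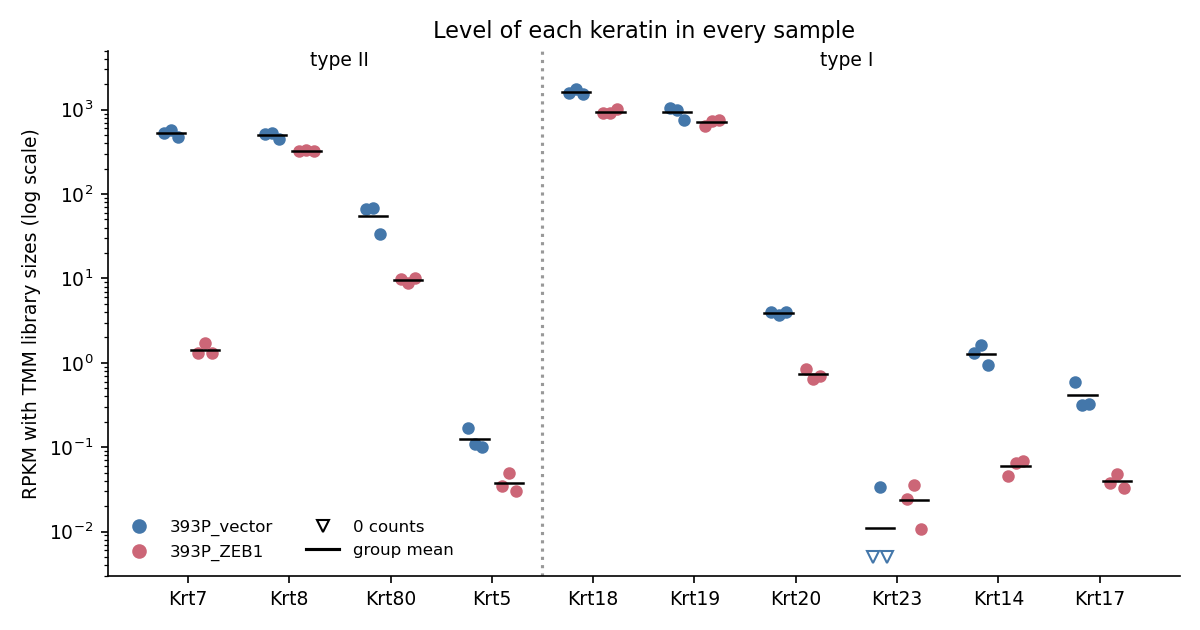
RPKM with TMM library sizes (log scale) of each keratin in every sample, type II genes to the left and type I genes to the right; points are samples, lines are group means and open triangles mark 0 counts. Krt7 drops from a range of 470 to 581 in 393P_vector to 1.29 to 1.72 in 393P_ZEB1, whereas Krt8 moves from 444 to 534 down to 323 to 332.

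Among the type II keratins of simple epithelia, Krt7 (chr15, 101412403 to 101427806 on the + strand of GRCm38, 9 exons) is the chain typical of ducts and of many lung adenocarcinomas. Its level was 826, 916 and 741 CPM in 393P_vector and 2.04, 2.72 and 2.05 CPM in 393P_ZEB1 replicates 1 to 3. The groups were far apart, with no sample near those of the other condition. The log2 fold change reached -8.51 with a standard error of 0.20 (edgeR adjusted p = 3.71e-07, exact permutation p = 0.1). A p of 0.1 is the smallest that a two-sided exact permutation test of 3 samples against 3 can give, and it was reached by every keratin whose groups did not overlap. Summed over samples, 162235 reads fell on Krt7 in 393P_vector and 385 in 393P_ZEB1 cells, a 361-fold difference per library size with a 95% exact interval of 327 to 400 that covers counting error only. All 9 exons held more than 10 reads in each 393P_vector sample, compared with 4, 5 and 5 exons in 393P_ZEB1 samples, so the residual reads were spread over several exons. Krt7 had the 6th largest fall of all tested genes. Of the 230 tested genes with a mean of at least 500 CPM in 393P_vector cells, Krt7 fell the most, and it was the only 1 lower by at least 100-fold. That cut was set on the condition where Krt7 was high and favours falls, so this rank is only descriptive.

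Krt8 (chr15, 101996711 to 102004342, - strand) is the main type II partner of Krt18 and among the first keratins made in the embryo. It was at 926, 958 and 797 CPM in 393P_vector and at 580, 596 and 581 CPM in 393P_ZEB1 samples. The 3 393P_ZEB1 samples lay close together and below all 393P_vector samples. Krt8 fell by 0.61 on the log2 scale (standard error 0.11, adjusted p = 0.00359 from edgeR), which is 1.53-fold. Krt8 therefore remained among the abundant transcripts. By CPM per kb of exon it ranked 123 in 393P_vector and 174 in 393P_ZEB1 cells. By the same measure Krt7, at rank 120 in 393P_vector, dropped to rank 10464.

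Krt80 (chr15, 101349571 to 101370125, - strand) is a type II chain of broad epithelial distribution that is associated with cell junctions. Its level was 116, 120 and 58.8 CPM in 393P_vector and 17.5, 15.5 and 17.7 CPM in 393P_ZEB1 samples. The 393P_vector replicate 3 was lower than its group but still above every 393P_ZEB1 sample. The log2 fold change was -2.54 with all samples (standard error 0.27, edgeR adjusted p = 0.000254) and -2.80 without that replicate. All 9 exons kept more than 10 reads in every sample.

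Among the type I keratins of simple epithelia, Krt18 and Krt20 fell, Krt19 did not pass the test and Krt23 was not tested. Krt18 (chr15, 102028216 to 102032026, + strand) is the only type I gene outside the type I cluster and lies next to Krt8, its main type II partner. It was the most abundant keratin in every sample, at 2219, 2436 and 2137 CPM in 393P_vector and 1289, 1286 and 1406 CPM in 393P_ZEB1 samples, with no overlap. Krt18 fell by 0.77 on the log2 scale (standard error 0.11, adjusted p = 0.00113 from edgeR), or 1.71-fold.

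Krt19 (chr11, 100140811 to 100145919, - strand) is the smallest keratin, lacking the tail domain, and pairs with Krt8 or Krt7 in simple and ductal epithelia. It was at 1426, 1368 and 1022 CPM in 393P_vector and at 867, 994 and 1043 CPM in 393P_ZEB1 samples. The 393P_vector replicate 3 lay below 393P_ZEB1 replicate 3, so the groups overlapped. The log2 fold change reached -0.39 with a standard error of 0.15 (edgeR adjusted p = 0.0809, exact permutation p = 0.2). Without 393P_vector replicate 3 it was -0.53 (adjusted p = 0.000901 from edgeR), and with voom sample weights in limma it was -0.50 (adjusted p = 0.000271). Whether Krt19 counted as lower thus turned on that replicate.

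Krt20 (chr11, 99428403 to 99438153, - strand) is a keratin of intestinal and urothelial lining that is rarely made in lung. It was low, at 7.70, 7.14 and 7.64 CPM in 393P_vector and 1.63, 1.24 and 1.33 CPM in 393P_ZEB1 samples. The groups were well separated and tight. The log2 fold change was -2.42 (standard error 0.17, edgeR adjusted p = 2.62e-05), and exons with more than 10 reads went from 7 in each 393P_vector sample to 3, 2 and 4 of 8. Krt23 (chr11, 99477973 to 99493110, - strand), a type I keratin of digestive epithelia, had 0, 3 and 0 counts in 393P_vector and 2, 3 and 1 in 393P_ZEB1 samples. It was at or under the floor of 3 counts in all samples, was not tested and gives no fold change.

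The stratified keratins were present only at low levels, and all 3 fell. Krt14 (chr11, 100203162 to 100207510, - strand), the type I chain of basal cells, had 122, 156 and 130 counts in 393P_vector and 4, 6 and 7 counts in 393P_ZEB1 samples, or 1.56 to 2.65 CPM against 0.0748 to 0.115 CPM. The log2 fold change was -4.38 (standard error 0.34, edgeR adjusted p = 4.03e-05), and the pooled counts differed 20.6-fold with a 95% exact interval of 12.7 to 35.7. In 393P_vector samples 4, 4 and 6 of 8 exons held more than 10 reads, whereas none did in 393P_ZEB1 samples.

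Krt17 (chr11, 100256217 to 100260989, - strand), a stress and wound keratin that also marks basal cells, had 51, 28 and 41 counts in 393P_vector and 3, 4 and 3 counts in 393P_ZEB1 samples. The latter sit at the floor. The pooled counts differed 10.3-fold with a 95% exact interval of 5.40 to 22.0 (log2 fold change -3.35, standard error 0.44, adjusted p = 0.000733 from edgeR). Krt5 (chr15, 101707070 to 101712891, - strand), the type II partner of Krt14, had 21, 14 and 18 counts against 4, 6 and 4. The groups did not overlap, and the pooled counts differed 3.24-fold with a 95% exact interval of 1.77 to 6.33 (log2 fold change -1.70, standard error 0.41, adjusted p = 0.0138 from edgeR). Leaving out 393P_ZEB1 replicate 1 or 3 gave adjusted p-values of 0.0550 and 0.0616 by edgeR for Krt5. Of the other basal markers, Ngfr did not follow the stratified keratins, and Trp63 was too low to compare. Trp63, the master regulator of basal cells, had at most 14 counts in any sample and was not tested, and Ngfr rose from 0.492 ± 0.105 to 1.03 ± 0.275 CPM (SD, n = 3 per group, log2 fold change 1.07, adjusted p = 0.0232 from edgeR). Since whole cultures were sequenced, fewer keratin-expressing cells and less keratin RNA per cell cannot be told apart for any member.

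To compare genes with each other, counts were scaled by exon length to RPKM with TMM library sizes. In 393P_vector cells the order of levels was Krt18 at 1625 ± 111 RPKM (SD, n = 3), Krt19 at 930 ± 160, Krt7 at 525 ± 55.4, Krt8 at 498 ± 47.4, Krt80 at 55.7 ± 19.4, Krt20 at 3.90 ± 0.161, Krt14 at 1.29 ± 0.329, Krt17 at 0.415 ± 0.160, Krt5 at 0.126 ± 0.0383 and Krt23 at 0.0111 ± 0.0192. The neighbours Krt7 and Krt8 overlapped, with sample ranges of 470 to 581 and 444 to 534 RPKM, and no other neighbours did. In 393P_ZEB1 cells Krt18 at 953 ± 49.2 RPKM was followed by Krt19 at 708 ± 66.2 and Krt8 at 326 ± 4.93, and then, after a wide gap, by Krt80 at 9.57 ± 0.673 RPKM. Krt7 came next at 1.44 ± 0.247 RPKM, just above Krt20 at 0.728 ± 0.105. The levels of Krt14, Krt17, Krt5 and Krt23 were at most 0.0694 RPKM in any sample, and each overlapped its neighbour in the order.

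The type II pool shrank more than the type I pool, a difference that rests largely on Krt7. Summed over the type II members, the level was 1105, 1183 and 947 RPKM in 393P_vector and 334, 342 and 335 RPKM in 393P_ZEB1 samples, a mean of 1078 ± 120 against 337 ± 4.53 (SD, n = 3), or 3.20-fold lower. Summed over the type I members it was 2641, 2754 and 2287 RPKM in 393P_vector and 1560, 1650 and 1772 RPKM in 393P_ZEB1 samples, a mean of 2561 ± 244 against 1661 ± 107, or 1.54-fold lower. Neither sum overlapped between conditions. Type II RNA was thus 29.6% ± 0.383 of the keratin RNA in 393P_vector and 16.9% ± 0.904 in 393P_ZEB1 cells. Krt7 alone went from a mean of 525 to 1.44 RPKM, whereas Krt8 fell 1.53-fold, near the 1.54-fold of the type I sum. The sums were not compared without Krt7.

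**Figure D2:**
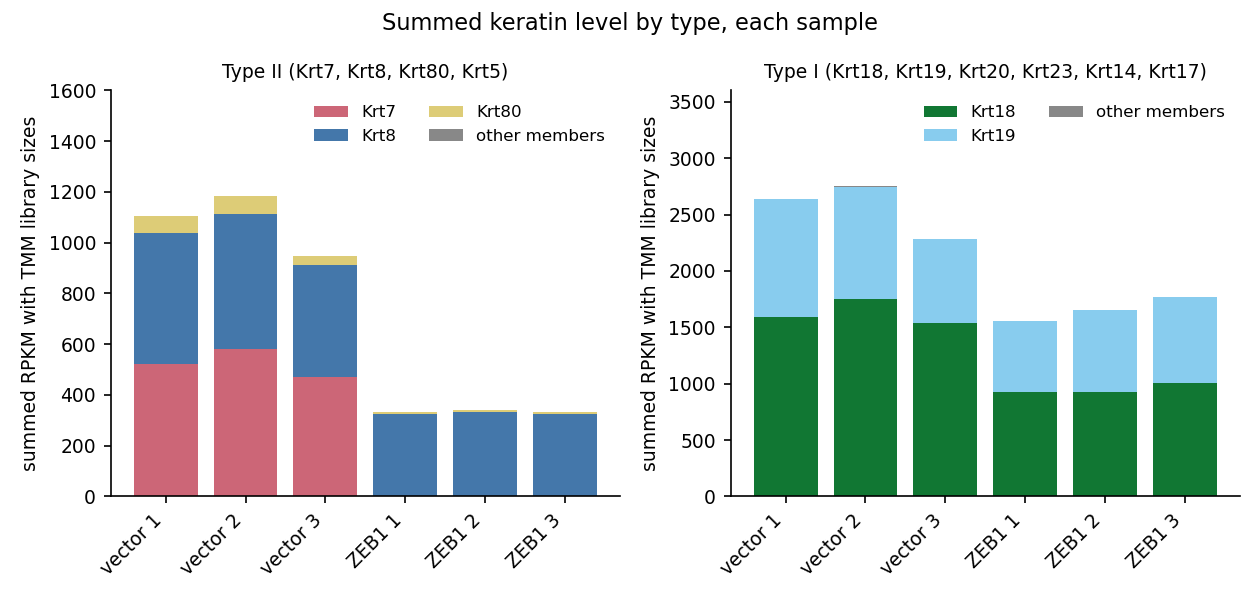
Summed RPKM with TMM library sizes of the type II members (left) and the type I members (right) in each sample, stacked by gene on axes that start at 0. Krt7 takes 47.4% to 49.6% of the type II column in 393P_vector samples and under 0.504% in 393P_ZEB1 samples, while the type I column keeps Krt18 and Krt19 in both.

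The makeup of the type II pool turned from a shared one to a Krt8 pool. Krt7 and Krt8 held 48.7% ± 1.17 and 46.2% ± 0.949 of type II RNA in 393P_vector cells (SD, n = 3), with Krt80 at 5.07% ± 1.35. In 393P_ZEB1 cells Krt8 held 96.7% ± 0.166, Krt80 2.84% ± 0.236 and Krt7 0.426% ± 0.0672. The makeup of the type I pool moved far less, from 63.6% ± 3.39 Krt18 and 36.2% ± 3.39 Krt19 to 57.4% ± 1.73 Krt18 and 42.6% ± 1.74 Krt19.

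To ask whether filament partners moved together, the log2 ratio of the type II to the type I gene was taken in each sample for 9 pairs and for the summed types. Ratios of length-scaled counts were compared by two-sided exact permutation tests, and p-values were adjusted over the 10 ratios. Of the 10 ratios, 7 did not overlap between conditions, and each of these had p = 0.1, adjusted p = 0.143 (exact permutation), so none could pass a threshold of 0.05 in this design. The ratios share genes, so these 7 are not separate observations, and no share over other gene pairs was taken.

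The founding pair changed little in relation to each other. Krt8 over Krt18 was -1.63, -1.71 and -1.79 in 393P_vector and -1.52, -1.48 and -1.64 in 393P_ZEB1 samples, means of -1.71 ± 0.08 and -1.55 ± 0.09 (SD, n = 3). The groups overlapped and the difference was 0.16 (exact permutation p = 0.2). Krt8 over Krt19 went from -0.89 ± 0.13 to -1.11 ± 0.13, a difference of -0.22 that also overlapped (exact permutation p = 0.2). A p of 0.2 with 3 samples per group does not show that these ratios were equal.

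The ratios with Krt7 as the type II partner collapsed. Krt7 over Krt18 was -1.60, -1.59 and -1.71 in 393P_vector and -9.48, -9.06 and -9.60 in 393P_ZEB1 samples, a difference of -7.74. Krt7 over Krt19 went from -0.82 ± 0.16 to -8.95 ± 0.24, a difference of -8.13. In linear terms there was 0.322 Krt7 for each Krt18 in 393P_vector and 0.00150 in 393P_ZEB1 cells. Krt80 over Krt18 fell by 1.70, from -4.94 ± 0.51 to -6.64 ± 0.08.

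In 3 of the pairs whose ratios did not overlap, the type I gene fell more than its type II partner. Krt8 over Krt20 rose from 6.99 ± 0.18 to 8.81 ± 0.22. Krt5 over Krt14 was -2.91, -3.83 and -3.22 in 393P_vector and -0.40, -0.40 and -1.14 in 393P_ZEB1 samples, a difference of 2.67, and Krt5 over Krt17 rose by 1.55. Both stratified ratios in 393P_ZEB1 cells rest on 3 to 7 counts per gene and sample. Krt8 over Krt23 is not interpretable, since Krt23 was at or under the floor. For the summed types the ratio was -1.26, -1.22 and -1.27 in 393P_vector and -2.22, -2.27 and -2.40 in 393P_ZEB1 samples, a difference of -1.05 that corresponds to 0.421 and 0.203 type II RNA for each type I RNA. Krt7 held 48.7% of type II RNA in 393P_vector cells, and no ratio of sums without it was taken.

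**Figure D3:**
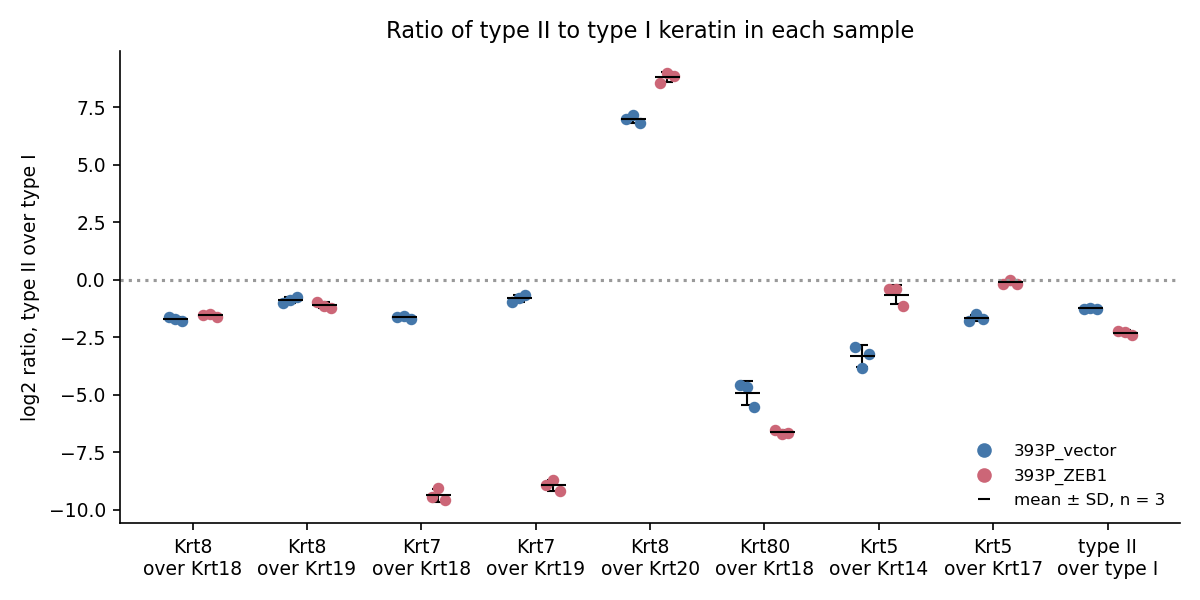
Log2 ratio of the type II to the type I keratin in each sample for 8 pairs and for the summed types; points are samples and bars are means ± SD (n = 3 per condition). Krt8 over Krt18 stays between -1.79 and -1.48 in all samples, while Krt7 over Krt18 drops to between -9.60 and -9.06 in 393P_ZEB1 samples.

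Together the 10 keratins made up 0.552%, 0.581% and 0.477% of the library in 393P_vector and 0.276%, 0.290% and 0.305% in 393P_ZEB1 samples, with no overlap. The mean went from 0.537% ± 0.0539 to 0.290% ± 0.0147 (SD, n = 3), 1.85-fold lower (exact permutation p = 0.1, the smallest possible). The stratified members contributed almost nothing to this, at 0.000302% and 2.41e-05% of the library, a 12.5-fold difference. Vim, which encodes vimentin, the intermediate filament protein of mesenchymal cells, was already abundant in 393P_vector cells at 3018 ± 184 RPKM and rose to 4017 ± 270 RPKM in 393P_ZEB1 cells (log2 fold change 0.41, adjusted p = 0.0256 from edgeR). Per length, keratin RNA was 1.22, 1.25 and 1.15 times that of Vim in 393P_vector and 0.508, 0.490 and 0.495 times in 393P_ZEB1 samples. Keratin thus exceeded Vim in every 393P_vector sample and was below it in every 393P_ZEB1 sample.

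**Figure D4:**
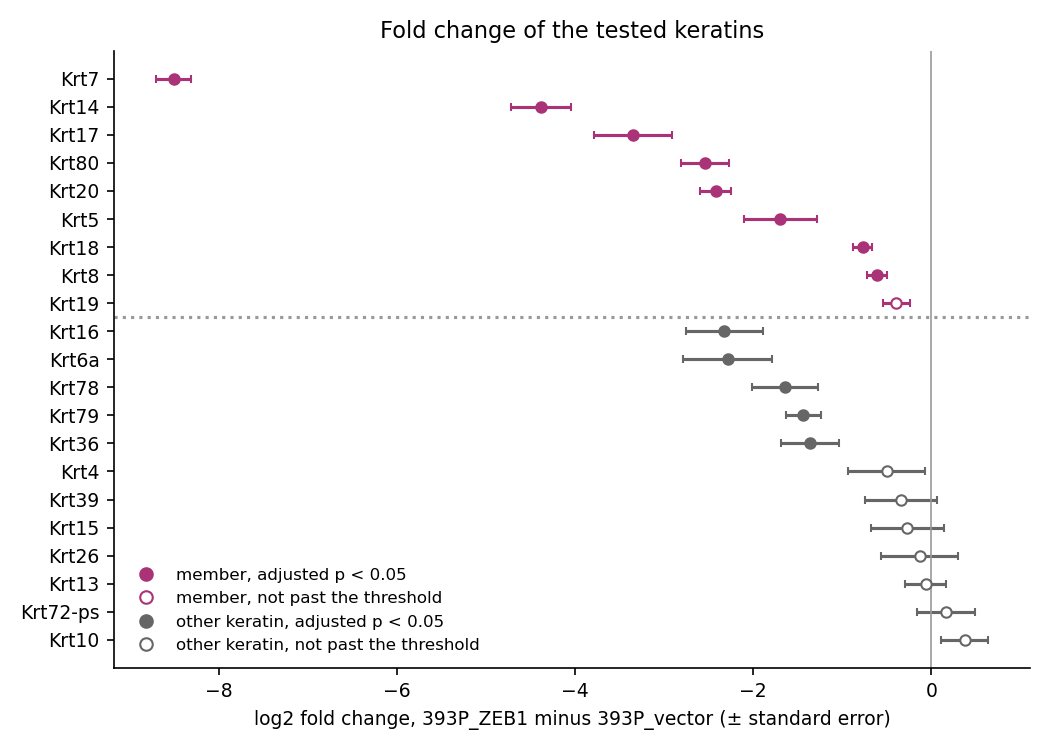
Log2 fold change of 393P_ZEB1 over 393P_vector with its standard error for the 9 tested members (above the dotted line) and the 12 other tested keratins (below it); filled points had an adjusted p below 0.05 in edgeR. All 9 members lie below 0, from -0.39 for Krt19 to -8.51 for Krt7, while 2 of the other keratins lie above it.

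Beyond the chosen genes, 42 other keratin features were counted and 12 were tested. Of these 12, 5 fell and 0 rose (19.3% and 18.3% over all tested genes), with a median log2 fold change of -0.42, and the 30 untested features had at most 58 counts over the 6 samples. Krt79, a type II keratin of hair follicle and gland ducts, was at 4.24, 4.40 and 3.19 CPM in 393P_vector and 1.53, 1.42 and 1.41 CPM in 393P_ZEB1 samples (log2 fold change -1.44, standard error 0.19, adjusted p = 0.000822 from edgeR), with the groups well apart. The others that fell were Krt16 (-2.32), Krt6a (-2.28), Krt78 (-1.64) and Krt36 (-1.36), named after their values were seen because so few passed. All 4 were under 1 CPM on average. Krt16, Krt6a and Krt78 averaged 0.145, 0.137 and 0.129 CPM in 393P_ZEB1 samples. They passed the low-count filter only through 393P_vector samples, so a rise could hardly be called for them. With at least 10 counts required in every sample, 2 other keratins were lower, beside 2215 of all 12572 genes tested. That count is too small to read as a result about the other keratins. Krt16 and Krt6a are partners induced in activated keratinocytes. Krt10 and Krt13, suprabasal type I keratins, had log2 fold changes of 0.37 and -0.06 that did not pass the test.

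Among the genes for proteins that bind keratin filaments or anchor them to desmosomes, Dsp and Pkp3 had the largest falls. Of 14 linker and plaque genes, all tested, 5 fell and 1 rose, with a median log2 fold change of -0.24, against 19.3% lower and 18.3% higher over all tested genes. With the replicate block 3 of the 14 were lower, a share near that of all tested genes, so the count is not read as a result about the list. Dsp, which encodes desmoplakin, the link between desmosome and keratin filament, was at 237, 230 and 187 CPM in 393P_vector and 7.76, 6.84 and 8.11 CPM in 393P_ZEB1 samples (log2 fold change -4.85, standard error 0.15, adjusted p = 7.13e-07 from edgeR). Pkp3, which encodes the desmosomal plakophilin of simple and stratified epithelia, went from 54.8, 59.8 and 30.6 CPM to 0.299, 0.522 and 0.246 CPM (log2 fold change -7.09, adjusted p = 8.22e-06 from edgeR). In both genes the groups were far apart.

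Eppk1, which encodes epiplakin, a keratin-binding plakin, fell by 2.01 on the log2 scale. Evpl, which encodes envoplakin, fell by 0.89 (adjusted p = 0.0464 from edgeR), with overlapping groups because 393P_vector replicate 3 was at 12.7 CPM and 393P_ZEB1 replicate 3 at 14.0 CPM. Its partner Ppl, which encodes periplakin, rose from 62.8 ± 17.0 to 105 ± 10.3 CPM (SD, n = 3, log2 fold change 0.74, adjusted p = 0.0252 from edgeR). Jup, which encodes plakoglobin, and Plec, which encodes plectin, had log2 fold changes of 0.01 and -0.42 that did not pass the test. The number of linkers called lower was 8 without 393P_vector replicate 3 and 3 when any other sample was left out, and Ppl lost its call without 393P_ZEB1 replicate 1 or 3. Genes called lower among all those tested numbered 3776 of 14106 without 393P_vector replicate 3 and 1784 to 2357 in the other such fits.

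Transcription factors known from keratin-expressing epithelia fell in part. Of 20 such genes 17 were tested, of which 8 fell and 1 rose, with a median log2 fold change of -0.80, beside the same shares of 19.3% and 18.3% over all tested genes. Grhl2, a regulator of epithelial junction genes, was at 35.6, 33.3 and 23.7 CPM in 393P_vector and 1.72, 2.38 and 2.36 CPM in 393P_ZEB1 samples (log2 fold change -3.84, standard error 0.22, adjusted p = 1.03e-05 from edgeR). The epithelial Ets factors Ehf and Elf3 had log2 fold changes of -5.28 and -2.85. Ehf averaged 0.129 CPM in 393P_ZEB1 samples, and Ovol1 and Ovol2, also among the 8 that fell, averaged 0.0521 and 0.0564 CPM there. Ehf, Ovol1 and Ovol2 passed the low-count filter only through 393P_vector samples. A rise could hardly be called for them, and they add no weight to the count and median of this list. With at least 10 counts required in every sample, 5 of these transcription factors were lower and 1 was higher, beside 2215 lower and 2205 higher of all 12572 genes tested. Cdx2, an intestinal homeobox factor, rose from 36.7 ± 11.3 to 140 ± 9.99 CPM (SD, n = 3, log2 fold change 1.93, adjusted p = 0.000465 from edgeR), in the opposite direction to the intestinal keratin Krt20. Klf4, Foxa1, Foxa2, Sp1 and Sp3 did not pass the test.

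The position of the genes was examined because type I and type II keratins lie in separate clusters and whole chromosomes differed between the conditions. On chromosome 15, which holds the type II cluster and Krt18, the 569 other tested genes had a median log2 fold change of -0.33, and 36.7% of them were lower and 12.3% higher. On chromosome 11, which holds the type I cluster, the 1152 other tested genes had a median of 0.27, with 9.81% lower and 29.4% higher. Relative to the chromosome median, Krt8 was at -0.28 and Krt18 at -0.44, whereas Krt19, on the chromosome with the upward shift, was at -0.66. Krt7 at -8.18, Krt14 at -4.65, Krt17 at -3.62, Krt20 at -2.69, Krt80 at -2.21 and Krt5 at -1.36 remained far below it. The part of the chromosome shift in the changes of Krt8, Krt18 and Krt19 was not tested.

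Within 500 kb of Krt8, 19 non-keratin genes were tested, with a median log2 fold change of -0.44, 8 lower and 2 higher. The lower genes with the smallest adjusted p near Krt8 and Krt18 were Prr13 (-0.99), Igfbp6 (-2.10), Aaas (-0.77) and Mfsd5 (-0.91), each a larger fall than that of Krt8 at -0.61. Within 500 kb of Krt7, 7 non-keratin genes were tested, with a median of -0.07 and 1 lower. Around Krt19, 14 such genes had a median of 0.35, with 1 lower and 5 higher.

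**Figure D5:**
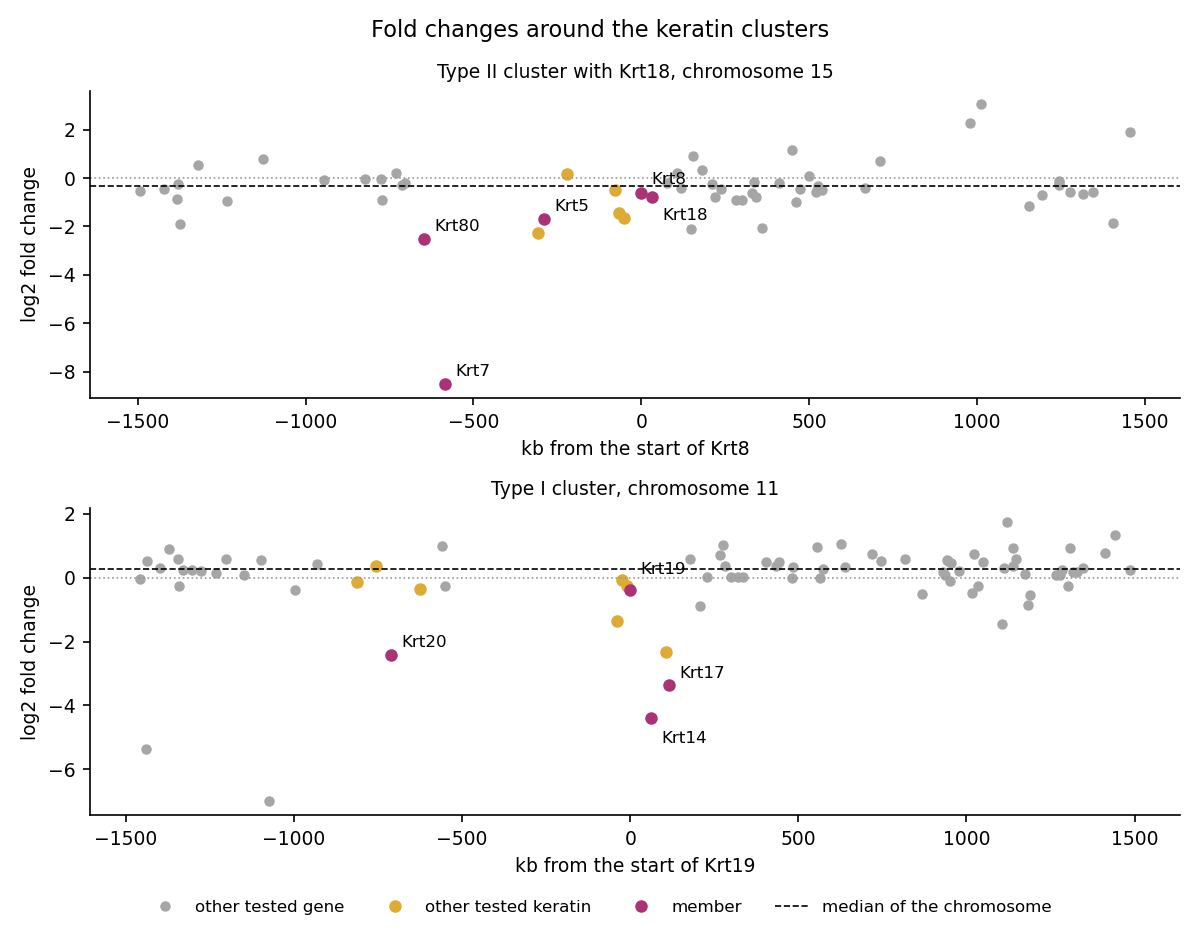
Log2 fold change (393P_ZEB1 over 393P_vector) of tested genes by distance in kb from the start of Krt8 on chromosome 15 (top) and of Krt19 on chromosome 11 (bottom); purple points are members, yellow points other keratins, grey points other genes and the dashed line the median of the chromosome. Krt7 stands at -8.51 among neighbours with a median of -0.07, while Krt8 and Krt18 sit among genes with medians of -0.44 and -0.42.

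The genes whose pattern over the 6 samples was most like that of Krt8 were Mdp1, Zfp7, Tbc1d24, Rad51ap1 and Lace1, with a root mean square difference of 0.0220 to 0.0391 in centred log2 CPM. These 5 genes had log2 fold changes of -0.64 to -0.59, beside -0.61 for Krt8, so the measure largely follows the size of the change between conditions. By the same measure Krt18 ranked 247 (0.106) and Krt19 ranked 710 (0.155) among the tested genes other than Krt8. Krt7 ranked 13883, which largely restates its log2 fold change of -8.51.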

How the data were processed

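Per the labels, total RNA from 6 samples of 393P transfectants was made into SOLiD libraries. The authors deposited per sample the raw read count, the exon length, the number of exons with more than 10 reads and an RPKM for 24214 RefSeq features on GRCm38. The aligner, the counting program and the use of strand are not given in the sources used here. The deposited RPKM is the count scaled by exon length and by a read total of 99.1% to 99.3% of the summed counts, and served only as an alternative for ratios. No sample was left out, and groups follow the labels.

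From the counts, 13892 features passed filterByExpr (minimum count 10) and were tested with a robust quasi-likelihood fit in edgeR 4.0.16 (R 4.3.3) on TMM library sizes, with condition as the only term and Benjamini-Hochberg adjustment at 0.05. The biological coefficient of variation was 0.184. RPKM in the text is recomputed from counts with TMM library sizes. Partner ratios add 0.5 counts per gene, and ratios and sums were compared by exact permutation over the 20 arrangements of samples (SciPy 1.17.1). Interval bounds are exact and cover counting error only.

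Alternatives were DESeq2 1.42.0 (size factors and Wald test), limma 3.58.1 with voom and sample weights, other filters, a replicate block, each sample left out, chromosome-centred fold changes, other ratio and share scales. The edgeR, DESeq2 and voom fits were run on simulated counts with the same spread for every gene and no outlying sample. The permutation tests, sums, ratios and promoter search were not simulated. The members, the gene lists and the tests were chosen with earlier results of these data known. Apart from the members, the text names in each list up to 4 called genes with the largest rise and fall at a mean of at least 1 CPM, up to 4 called neighbours of Krt8 and Krt18 by adjusted p, and the 5 genes nearest to Krt8 in profile. Genes outside this rule are named as markers, as background, because few passed, or because they lie near the floor. A transcription factor that meets this rule and a promoter match are not reported here.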

Additional observations from a re-analysis of the deposited data

How the results depend on the processing

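All 8 calls of a fall among the keratins and all directions held with DESeq2 size factors, the DESeq2 Wald test, no filter on low counts and the replicate block (8 lower under the block). Requiring 10 counts in every sample left 6 members tested and 5 lower, since Krt5, Krt14 and Krt17 could not enter. Under that filter 2 other keratins and 5 transcription factors were lower, beside 2215 of all 12572 genes tested. With voom weights 8 linkers were lower and 3 transcription factors higher, beside 4100 lower and 3971 higher of all 13892 tested genes. With the replicate block 3 linkers were lower, beside 2256 of all 13892 tested genes. Over the fits that leave out 1 sample, keratins called lower ranged from 7 to 9, other keratins lower from 4 to 6, linkers lower from 3 to 8, linkers higher from 0 to 1 and transcription factors higher from 1 to 3. Calls over all tested genes also varied in these fits, from 1784 to 3776 lower and from 1861 to 3700 higher. Both were highest without 393P_vector replicate 3, when 14106 genes were tested. The highest counts of linkers and of rising transcription factors (8 and 3) were reached without 393P_vector replicate 3, and the 9 keratins likewise, since Krt19 then passed. The cause was not tested. No result reversed. Fold changes ranged from -8.65 to -8.43 for Krt7, -0.69 to -0.55 for Krt8, -0.81 to -0.71 for Krt18, and -0.53 to -0.30 for Krt19, and the summed-type ratio from -1.09 to -0.998. The numbers do not pair the samples: deviations of same-numbered samples correlated at 0.279, -0.205 and -0.0377, and those of other pairs at -0.182 to 0.222. The replicate block moved the ratio differences by nothing, since it averages the same samples. Reads may be shared between near-identical genes (Krt14, Krt16 and Krt17, or Krt8, Krt18 and their processed pseudogenes), and overlapping antisense or non-coding genes at Krt80, Krt8 and Krt5 cannot be separated without strand. Krt5, Krt17 and Krt14 in 393P_ZEB1 samples and Krt23 in all samples lie near the floor, where depth limits the values.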
